A study of Mus musculus with 24 samples.

Results

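The genes described here are 10 markers of cytotoxic lymphocytes and natural killer (NK) cells, taken by name from the 55471 genes of the deposited tables: Eomes, Tbx21, Nkg7, Gzma, Gzmb, Prf1, Klrb1c, Ncr1, Klrk1 and Klrd1. All 10 were found in the tables. They were followed through polyA RNA of skin and bone from female mice 10 weeks old, from a study whose title names a sarcoma model in mice. Each tissue had 3 groups of 4 libraries, labelled as biological replicates: F-PRT, S-PRT and Untreated. The labels do not spell out the beam names; F-PRT is taken to be FLASH proton radiotherapy, given at ultra-high dose rate, and S-PRT to be the same at the standard dose rate. Dose, time after irradiation, strain and whether the sampled tissue held tumour are not given in the labels. Nothing there says that replicates came from separate animals, so the p-values measure the spread between these libraries. Libraries held from 16418026 to 22088370 counts in skin and from 10909700 to 17361478 counts in bone.

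NK cells and cytotoxic T cells kill target cells by releasing granules that hold perforin, which opens membranes, and granzymes, proteases that start cell death inside the target. Whether an NK cell releases them depends on the balance of activating and inhibitory receptors at its surface. The T-box transcription factors Eomes and T-bet (Tbx21) drive the maturation of NK cells and the cytotoxic program of T cells. Bone marrow is a site where NK cells develop, whereas mouse epidermis holds a resident gamma delta T cell population that carries the receptor Klrk1. Of the 10 genes, Ncr1 (NKp46) and Klrb1c (NK1.1) are the ones used most to mark NK cells in mice, while Nkg7, the granzymes, Prf1, Klrk1 (NKG2D) and Klrd1 (CD94) are shared with T cells.

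The genes lie on 7 chromosomes of GRCm38, and all are annotated as protein-coding. Klrb1c (128778485 to 128789215, reverse strand), Klrd1 (129591782 to 129598775, forward strand) and Klrk1 (129610323 to 129623864, reverse strand) share 1 stretch of 0.85 Mb on chromosome 6. This is part of the NK gene complex, and the stretch holds 22 protein-coding genes, among them 6 named as killer cell lectin-like receptors and 9 named as C-type lectins. Ncr1 (4337724 to 4345164) and Nkg7 (43437073 to 43438249) are both on chromosome 7, far apart. Eomes is on chromosome 9 (118478212 to 118486132), Prf1 on chromosome 10 (61297833 to 61304680), Tbx21 on chromosome 11 (97098071 to 97115331), Gzma on chromosome 13 (113093825 to 113100981) and Gzmb on chromosome 14 (56258838 to 56262260). Klrb1c overlaps Gm44511 on the same strand, which had from 0 to 23.84 counts in a library, so the split of reads between them is uncertain. Eomes overlaps the antisense model Gm33460, which had at most 2.11 counts.

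The 250 bases before the RefSeq start were found for 9 of the 10 genes (GRCm38.p6; the table held no entry for Klrd1). They were searched on both strands for short motifs of the factor families known from lymphocytes: Runx (TGTGGTT, or AACCACA on the other strand), T-box (AGGTGTGA), Ets (AGGAAGT) and Stat (TTCNNNGAA). The Stat letters read the same on both strands, and their outer TTC or GAA can fall inside an Ets match. These motifs and the promoters printed were picked after the matches of several patterns had been looked at, so the counts are a description. The Runx letters stood in 4 of the 9 windows and in 5.08% of the windows of 27025 genes. The T-box letters stood in 1 of the 9, that of Nkg7, against 1.3% of all windows. Ets letters were in the windows of Prf1 and Tbx21 (8.8% of all windows) and Stat letters in that of Nkg7 (8.13%). Shown here, 5′ to 3′ along the gene, are the 4 windows with the Runx letters and the Nkg7 window, since Nkg7 is the gene whose RNA parted from the others in bone. Capitals mark the Runx motif in the first 4 and the T-box motif in the last.
Gzma (chr13:113100982-113101231, reverse strand): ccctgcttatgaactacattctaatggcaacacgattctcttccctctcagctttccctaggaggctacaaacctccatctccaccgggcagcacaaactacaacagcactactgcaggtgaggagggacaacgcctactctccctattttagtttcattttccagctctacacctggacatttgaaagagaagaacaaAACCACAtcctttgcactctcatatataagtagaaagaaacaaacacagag
Gzmb (chr14:56262335-56262584, reverse strand): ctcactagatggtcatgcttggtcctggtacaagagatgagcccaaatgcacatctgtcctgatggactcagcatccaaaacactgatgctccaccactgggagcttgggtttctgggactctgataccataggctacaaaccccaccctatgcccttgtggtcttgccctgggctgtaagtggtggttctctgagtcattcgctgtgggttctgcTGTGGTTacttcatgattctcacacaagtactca
Ncr1 (chr7:4337465-4337714, forward strand): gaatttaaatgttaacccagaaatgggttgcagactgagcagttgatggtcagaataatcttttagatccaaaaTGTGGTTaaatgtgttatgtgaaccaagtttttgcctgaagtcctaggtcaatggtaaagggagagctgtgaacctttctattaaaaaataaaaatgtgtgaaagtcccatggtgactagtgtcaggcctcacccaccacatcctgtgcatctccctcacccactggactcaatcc
Klrk1 (chr6:129623865-129624114, reverse strand): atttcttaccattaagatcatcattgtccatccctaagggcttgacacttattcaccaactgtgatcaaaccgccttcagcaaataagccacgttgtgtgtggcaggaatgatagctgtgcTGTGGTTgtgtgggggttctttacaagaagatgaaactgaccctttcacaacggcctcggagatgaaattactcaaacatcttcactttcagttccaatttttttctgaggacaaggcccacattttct
Nkg7 (chr7:43436888-43437137, forward strand): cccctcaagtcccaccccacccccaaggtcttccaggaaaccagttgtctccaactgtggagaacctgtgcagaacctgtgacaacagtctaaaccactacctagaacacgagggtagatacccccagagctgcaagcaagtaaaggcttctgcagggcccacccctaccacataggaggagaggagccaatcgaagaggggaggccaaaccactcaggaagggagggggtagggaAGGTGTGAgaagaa
Counted from the start, the Runx match lay at -51 to -45 in Gzma (on the reverse strand), -34 to -28 in Gzmb, -176 to -170 in Ncr1 and -129 to -123 in Klrk1. The T-box match of Nkg7 lay at -14 to -7. All these positions are counted from the RefSeq start. The Nkg7 window runs to 43437137, past the annotated gene start at 43437073, so its T-box match lies inside the annotated gene. For Gzmb and Ncr1 the RefSeq start lies before the annotated one.

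In untreated tissue, the 2 tissues were compared over all 24 libraries for the genes that passed the filter on low counts in both: Nkg7, Prf1, Klrb1c, Klrk1 and Klrd1. Of these 5, Nkg7 and Klrb1c were higher in bone and Prf1 was lower (edgeR quasi-likelihood test, Benjamini-Hochberg adjusted p under 0.05). Over all 20754 genes tested, 32.6% were higher in bone and 32.6% lower. Klrb1c was higher in bone by log2 2.84 (SE 0.47, adjusted p = 1.55e-05) and Nkg7 by 2.22 (SE 0.48, adjusted p = 0.000329). The other 5 genes passed only through bone, so their levels are given as a description, with no test. Summed over the 4 untreated libraries, Eomes had 4 counts in skin and 159 in bone, Tbx21 12 and 121, Gzma 5 and 88, Gzmb 17 and 43 and Ncr1 5 and 133.

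Prf1, the gene of perforin, went the other way. It was at 2.0, 1.37, 0.97 and 0.98 TPM (a level scaled for transcript length and library total) in the untreated skin libraries and at 0.24, 0.48, 0.76 and 0.6 TPM in untreated bone. No bone library reached the lowest skin library, as for 20.3% of all genes, and the fitted level in bone was 0.366 times that in skin (log2 -1.45, SE 0.38, adjusted p = 0.00196). Neither Klrk1 (log2 0.56, 95% interval -0.13 to 1.25) nor Klrd1 (log2 0.21, -0.61 to 1.02) passed. Without skin S-PRT 4, which shares the estimate of the spread, Klrk1 did pass as higher in bone (adjusted p = 0.0201).

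The genes were also ordered by TPM within each tissue. In untreated skin, Nkg7 led at 4.39 ± 1.44 TPM (SD, n = 4), followed by Klrk1 at 3.65 ± 1.46, Klrd1 at 3.4 ± 0.872 and Prf1 at 1.33 ± 0.484. The first 3 overlapped, Prf1 lay below all of them, and Klrb1c came next at 0.232 ± 0.171 TPM, below every Prf1 value. The leading 4 held 96.2% of the summed level of the 10 genes in untreated skin and 84.5% in untreated bone. Bone had Nkg7 at 23.1 ± 12.2 TPM, Klrk1 at 5.37 ± 2.62, Klrd1 at 4.04 ± 1.71, Klrb1c at 1.93 ± 0.989, Gzma at 1.41 ± 0.753 and Ncr1 at 1.16 ± 0.617. Below them came Tbx21 (0.588 ± 0.196 TPM), Eomes (0.583 ± 0.183), Prf1 (0.52 ± 0.219) and Gzmb (0.383 ± 0.237). Each neighbour in the bone order overlapped the next.

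**Figure D1:**
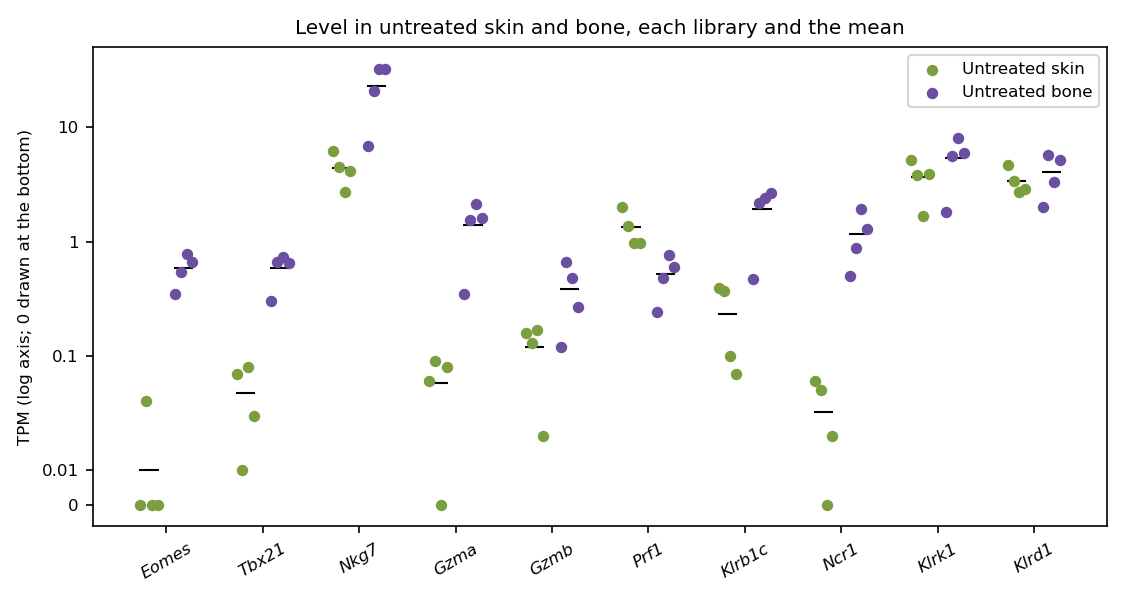
Level of each gene in the untreated libraries, in TPM on a log axis, with skin in green and bone in purple. Points are libraries and lines the mean of 4; Prf1 is the gene whose bone points all lie below its skin points, while Eomes, Gzma and Ncr1 sit near 0 in skin.

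Markers of the cells that could carry these transcripts were summed in the 2 tissues. The 8 NK cell markers (Ncr1, Klrb1c, Eomes, Klra8, Klra4, Klre1, Sh2d1b1 and Klri2) summed to between 0.39 and 1.15 TPM in untreated skin and between 2.92 and 9.66 TPM in untreated bone. Ncr1, Klrb1c and Eomes are also among the 10 genes, so this sum is not separate from the levels given above. The 7 gamma delta T cell markers summed to between 13.7 and 38.0 TPM in skin and between 2.93 and 5.31 TPM in bone. Trdc, the constant segment of the delta chain, was at 2.72 ± 1.17 TPM in untreated skin and 0.385 ± 0.0858 TPM in untreated bone (SD, n = 4). Tcrg-V5, a gamma chain segment known from the epidermal population, was at 3.22 ± 1.58 TPM in untreated skin and in untreated bone was listed at 0 in all libraries but 1, which held 0.42 TPM. It was listed at 0 in the 8 irradiated bone libraries. Of the labelled tissues, bone carried its osteoblast and osteocyte markers (2210 to 3000 TPM summed over 8 genes in untreated libraries, none at 0) and skin its basal keratinocyte markers (2080 to 5830 TPM). In bulk RNA, more cells of a type and more RNA per cell cannot be told apart.

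Bone after F-PRT was compared with untreated bone to ask how the cytotoxic genes responded to the FLASH beam. They rose almost as a block: 9 of 10 were higher, 0 were lower, and Nkg7 was the exception. Gzma and Gzmb, counted here and after S-PRT, passed the filter on low counts only with the irradiated libraries. Their part in these counts is therefore no separate support. Among all 18848 genes tested, 15.5% were higher and 17.2% lower. The median log2 change of the 10 genes was 1.17, against -0.01 for all genes. In each of the 9 that rose, the lowest F-PRT library lay above the highest untreated library, which held for 15.0% of all genes. After S-PRT, set against the same untreated libraries, 6 of 10 rose and 0 fell, where 13.3% of all genes rose and 15.2% fell. The median of the 10 was then log2 0.86, again against -0.01 for all genes, and 4 genes had no overlap with the untreated libraries (12.1% of all genes).

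**Figure D2:**
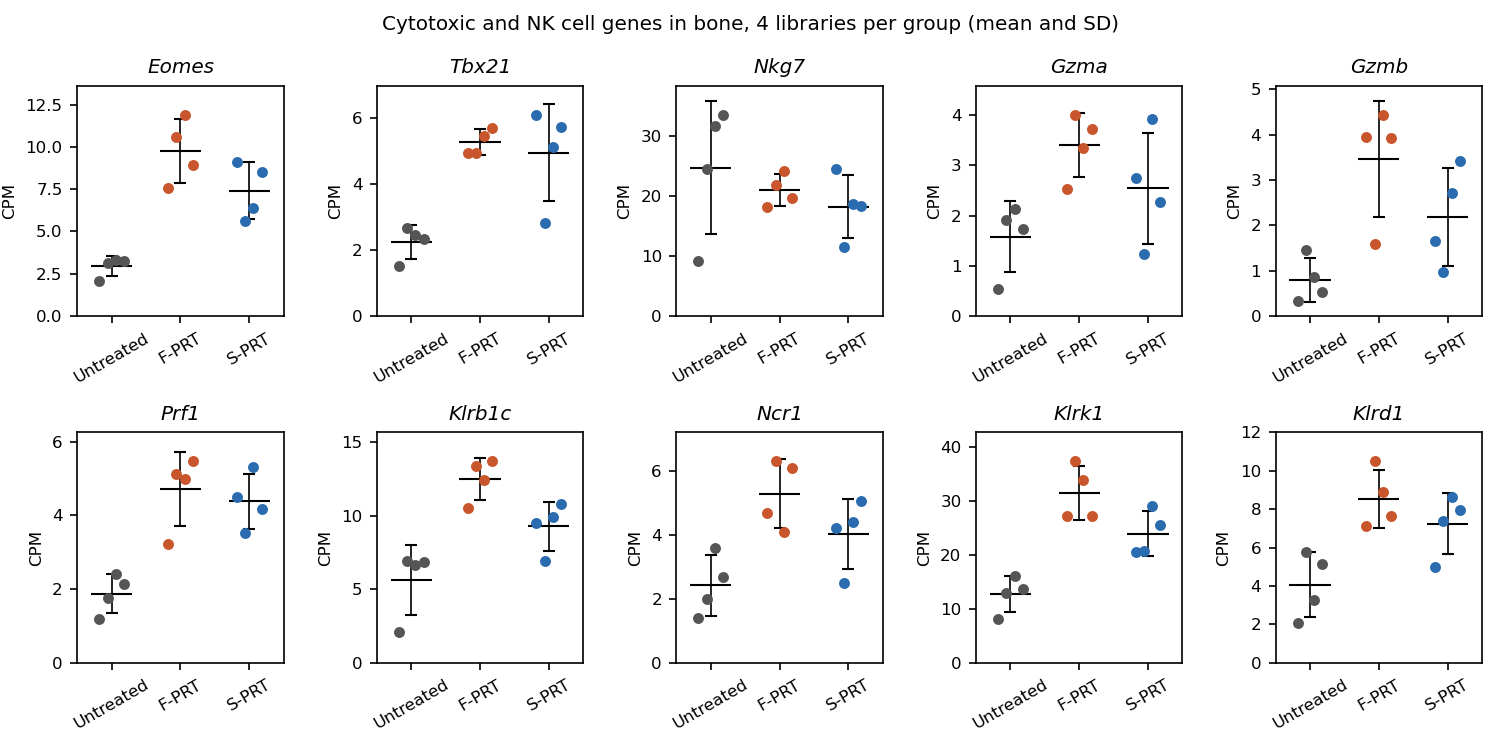
Scaled counts (CPM) of the 10 genes in the 12 bone libraries, on axes that start at 0. Points are libraries, the long line is the mean and the bar the SD of 4; the F-PRT points lie above all untreated points for every gene except Nkg7, and the first untreated point is low for most genes.

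Both transcription factors rose after either beam, Eomes with the smallest p of the 10 genes. Eomes was at 2.06, 3.13, 3.33 and 3.28 CPM (counts scaled to library size) in the untreated bone libraries, at 7.59, 10.6, 11.9 and 8.9 CPM after F-PRT and at 9.13, 5.6, 6.39 and 8.53 CPM after S-PRT. Every irradiated library was above every untreated one. The rise was 3.26-fold after F-PRT (log2 1.70, SE 0.21, adjusted p = 6.34e-05) and 2.48-fold after S-PRT (log2 1.31, SE 0.22, adjusted p = 0.000589). Tbx21, which encodes T-bet, was at 1.52, 2.67, 2.47 and 2.34 CPM in untreated bone, 4.94, 4.95, 5.48 and 5.72 CPM after F-PRT and 6.11, 2.83, 5.13 and 5.75 CPM after S-PRT. One S-PRT library, replicate 2, stood close to the untreated range without entering it, and the 4 F-PRT libraries were tightly grouped. Tbx21 rose 2.31-fold after F-PRT (log2 1.21, SE 0.24, adjusted p = 0.00197) and 2.18-fold after S-PRT (log2 1.12, SE 0.24, adjusted p = 0.00368).

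Genes of the granule contents rose too, with Gzmb showing the largest estimate and the widest spread. Both Gzmb and Gzma passed the filter on low counts only with the irradiated libraries. Their calls thus rest partly on the groups where they were high, and the size of the Gzmb estimate on few untreated counts. Gzmb, the gene of granzyme B, was at 0.325, 1.45, 0.867 and 0.536 CPM in untreated bone, between 3 and 19 counts a library. F-PRT libraries held 3.94, 1.59, 4.44 and 3.92 CPM and S-PRT libraries 1.65, 0.967, 2.71 and 3.41 CPM. F-PRT 2 lay just above the highest untreated library, and S-PRT 2 lay inside the untreated range. The rise was 4.24-fold after F-PRT (log2 2.08, SE 0.48, adjusted p = 0.00466) and 2.68-fold after S-PRT (log2 1.42, SE 0.49, adjusted p = 0.0423). The S-PRT call was fragile: it was lost when any of 8 libraries was left out (Untreated 1, 3 or 4, F-PRT 1 or 4, S-PRT 1, 3 or 4; adjusted p from 0.0527 to 0.132).

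Prf1 was at 1.19, 1.75, 2.4 and 2.14 CPM in untreated bone, 3.23, 5.13, 4.99 and 5.47 CPM after F-PRT and 4.51, 3.52, 5.31 and 4.17 CPM after S-PRT. No irradiated library overlapped the untreated ones. Perforin RNA thus rose 2.46-fold after F-PRT (log2 1.30, SE 0.24, adjusted p = 0.0012) and 2.3-fold after S-PRT (log2 1.20, SE 0.24, adjusted p = 0.00246). Gzma, which encodes granzyme A, a protease that cuts at basic residues, was at 0.542, 1.91, 2.13 and 1.74 CPM in untreated bone, 2.53, 4.01, 3.35 and 3.73 CPM after F-PRT and 2.74, 1.24, 3.92 and 2.28 CPM after S-PRT. F-PRT libraries were all higher than untreated ones, while S-PRT 2 fell among them. Gzma rose 2.09-fold after F-PRT (log2 1.06, SE 0.37, adjusted p = 0.0412) and after S-PRT did not pass (log2 0.65, 95% interval -0.15 to 1.46, adjusted p = 0.218). Its F-PRT call ended when any of 8 libraries was left out (Untreated 1, 2 or 4, F-PRT 2, 3 or 4, S-PRT 1 or 4; adjusted p from 0.0514 to 0.0977).

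Among the receptors, the activating receptor gene Klrk1 had the highest CPM and the smallest standard error. It was at 8.03, 13.0, 16.0 and 13.7 CPM in untreated bone, 27.3, 37.4, 34.0 and 27.3 CPM after F-PRT and 20.5, 20.7, 29.1 and 25.5 CPM after S-PRT. The untreated libraries were below all irradiated ones. Klrk1 rose 2.47-fold after F-PRT (log2 1.30, SE 0.19, adjusted p = 0.000186) and 1.87-fold after S-PRT (log2 0.91, SE 0.19, adjusted p = 0.0029). Klrd1, whose product pairs with NKG2 proteins to read the class I molecule Qa-1, was at 2.06, 5.79, 3.27 and 5.16 CPM in untreated bone, 7.11, 10.5, 8.88 and 7.65 CPM after F-PRT and 4.96, 7.39, 8.63 and 7.96 CPM after S-PRT. S-PRT 1 was within the untreated range. Klrd1 rose 2.07-fold after F-PRT (log2 1.05, SE 0.27, adjusted p = 0.00964) and 1.75-fold after S-PRT (log2 0.81, SE 0.27, adjusted p = 0.0404). The S-PRT call of Klrd1 ended when Untreated 1 or 3, F-PRT 4, or S-PRT 2, 3 or 4 was left out (adjusted p from 0.0508 to 0.109).

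The receptors used most to mark NK cells rose after F-PRT. Klrb1c was at 2.06, 6.94, 6.67 and 6.83 CPM in untreated bone, 10.5, 13.4, 12.4 and 13.7 CPM after F-PRT and 9.47, 6.91, 9.89 and 10.8 CPM after S-PRT. Untreated 1 was far below its 3 fellows, and S-PRT 2 matched them. Klrb1c rose 2.19-fold after F-PRT (log2 1.13, SE 0.27, adjusted p = 0.00591), and its S-PRT value of log2 0.70 (95% interval 0.11 to 1.28) did not pass (adjusted p = 0.0708). Left without Untreated 1, the S-PRT value of Klrb1c was smaller, log2 0.47, but its SE fell to 0.16 and it passed (adjusted p = 0.0334). It also passed without S-PRT 2 (adjusted p = 0.0476). Ncr1, the gene of the activating receptor NKp46, was at 1.41, 1.98, 3.6 and 2.68 CPM in untreated bone, 4.7, 6.31, 4.08 and 6.1 CPM after F-PRT and 4.22, 2.49, 4.4 and 5.06 CPM after S-PRT. Here again F-PRT libraries cleared the untreated range and S-PRT 2 did not. Ncr1 rose 2.15-fold after F-PRT (log2 1.10, SE 0.29, adjusted p = 0.00974), and after S-PRT it stood at log2 0.72 (95% interval 0.09 to 1.34, adjusted p = 0.0807). Without Untreated 3 or S-PRT 2 the S-PRT value of Ncr1 passed (adjusted p = 0.0319 and 0.0282).

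Nkg7, which encodes a membrane protein of cytotoxic granules needed for their release, did not follow the others. It was at 9.22, 24.5, 31.6 and 33.5 CPM in untreated bone, 18.1, 21.8, 24.2 and 19.7 CPM after F-PRT and 24.4, 11.5, 18.7 and 18.3 CPM after S-PRT. Its untreated libraries spanned the irradiated ones: Untreated 1 was the lowest of all 12 and Untreated 3 and 4 the highest. The change was log2 -0.25 after F-PRT (95% interval -0.91 to 0.4, adjusted p = 0.558) and -0.45 after S-PRT (-1.1 to 0.21, adjusted p = 0.302). Without Untreated 1, Nkg7 fell after S-PRT (log2 -0.68, SE 0.20, adjusted p = 0.0175) and stood at log2 -0.49 after F-PRT (adjusted p = 0.066). For this gene the scale changes the direction. In TPM its means were 23.1 ± 12.2 in Untreated, 30.9 ± 4.91 in F-PRT and 25.0 ± 7.12 in S-PRT (SD, n = 4). The untreated mean was lowest in TPM, where in CPM it was highest. Across the 12 bone libraries, log2 CPM of Nkg7 correlated with the other 9 genes at a median r of 0.20, against 0.85 over all 45 pairs of the 10 genes. After each group's mean was taken off, the median of the Nkg7 pairs was 0.79, so within groups its libraries were high and low with the rest. These correlations describe 12 libraries that share depth and tissue makeup.

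By TPM the order of the genes in irradiated bone was close to that in untreated bone. After F-PRT, Nkg7 was followed by Klrk1 at 20.7 ± 2.15 TPM, Klrd1 at 15.0 ± 1.61, Klrb1c at 6.73 ± 0.842, Gzma at 4.81 ± 0.894, Ncr1 at 4.01 ± 0.798 and Eomes at 3.0 ± 0.633 (SD, n = 4). Gzmb (2.75 ± 1.1 TPM), Tbx21 (2.23 ± 0.294) and Prf1 (2.11 ± 0.542) closed the order. The first 4 were each separated from the next without overlap, and from Gzma down each overlapped its neighbour. The summed level of the 10 genes ran from 12.9 to 53.2 TPM in untreated bone, from 79.9 to 104.0 TPM after F-PRT and from 50.9 to 78.9 TPM after S-PRT. TPM gave larger rises in bone than CPM, so these sums are no measure of the fitted changes. The mean of Klrk1, for example, went from 5.37 to 20.7 TPM after F-PRT, and from 12.7 to 31.5 CPM.

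One untreated bone library carried part of these differences. Untreated 1 had the lowest depth of the series, 10909700 counts, and the lowest value of its group in all 10 genes. Without that library alone, the F-PRT changes of the 9 genes ran from log2 0.84 for Gzma, which then missed the test, to 1.90 for Gzmb, and 8 genes rose. F-PRT 2 and F-PRT 3 stood apart in earlier work on these data, though neither was flagged as an outlier in the 10 genes. Leaving them out together with Untreated 1 left 7 genes higher after F-PRT, with fewer libraries in both groups. Gzma and Klrd1 no longer passed (log2 0.70 and 0.65, adjusted p = 0.243 and 0.111). After S-PRT the same step left 4 higher, Eomes, Tbx21, Prf1 and Klrk1, and 1 lower, Nkg7 (log2 -0.71, SE 0.20, adjusted p = 0.0217).

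**Figure D3:**
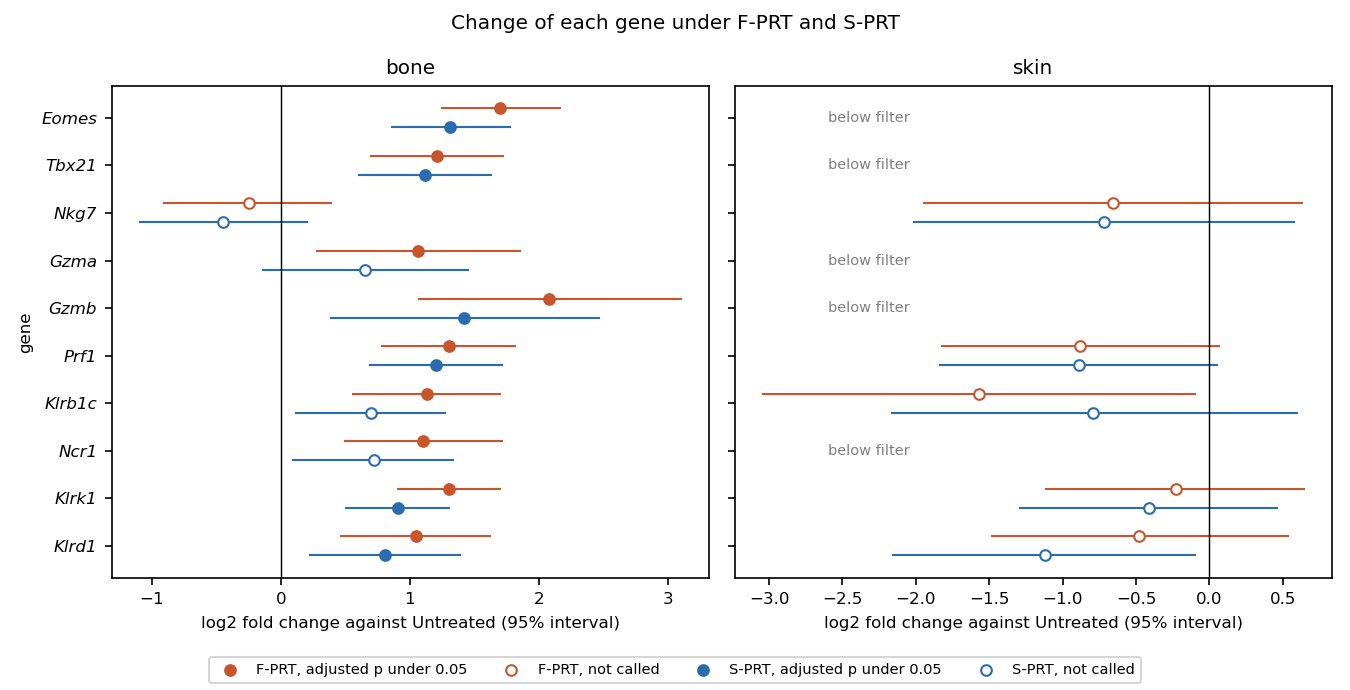
Fitted log2 change of each gene against untreated tissue with its 95% interval, in bone on the left and skin on the right; filled points passed at adjusted p under 0.05 and open points did not. In bone 9 F-PRT points and 6 S-PRT points are filled, and in skin none of the 5 genes tested is.

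The beams were set against each other directly in bone. For none of the 10 genes did F-PRT differ from S-PRT in the edgeR test (adjusted p = 1 for each), and over all 18848 genes only 1 differed, 0.00531%. By unadjusted p, 1 of the 10 was under 0.05, and DESeq2 and limma voom each called 0. All 10 estimates were positive, with a median of log2 0.39 against 0.01 for all genes. Gzmb had the largest, log2 0.66 (95% interval -0.25 to 1.57), and Klrk1 the smallest p (log2 0.40, 0.01 to 0.79, unadjusted p = 0.0471). Eomes stood at log2 0.39 (-0.03 to 0.82), Klrb1c at 0.43 (-0.12 to 0.99), Ncr1 at 0.39 (-0.2 to 0.97) and Gzma at 0.41 (-0.34 to 1.17). The intervals of Tbx21 (-0.4 to 0.57) and Prf1 (-0.38 to 0.59) were centred near 0. Without the libraries that stood apart, the median was log2 0.17. That fit kept S-PRT 2, the lowest S-PRT library in each of the 10 genes except Klrk1 and Klrd1. The genes also varied together across the bone libraries (median r 0.85), so their shared sign is not separate support from each gene. So genes called after F-PRT and not after S-PRT, such as Klrb1c, Ncr1 and Gzma, are not shown to differ between the beams.

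Other cell markers moved in the same bone libraries. The counts of markers called stand beside all genes, where 15.5% rose and 17.2% fell after F-PRT, and 13.3% rose and 15.2% fell after S-PRT. The 11 T cell markers summed to between 9.98 and 34.6 TPM in untreated bone, 90.7 and 128.0 TPM after F-PRT and 55.9 and 104.0 TPM after S-PRT, and 10 of 11 rose after either beam. Trac, the constant segment of the T cell receptor alpha chain, went from 3.55 ± 1.67 to 21.4 ± 4.69 TPM after F-PRT (SD, n = 4). Its fitted rise was smaller, 3.48-fold (log2 1.80, SE 0.27, edgeR adjusted p = 0.000255). The marker sums are likewise in TPM and are not fitted changes. The NK cell markers, which include 3 of the 10 genes, summed to between 19.0 and 24.9 TPM after F-PRT and 13.2 and 21.0 TPM after S-PRT. Of these markers, 6 of 8 rose after F-PRT and 2 of 8 after S-PRT, and none was at 0. Ncr1, Klrb1c and Eomes after F-PRT, and Eomes after S-PRT, are calls already given above. The others were Klra4, Klre1 and Klri2 after F-PRT and Klre1 after S-PRT. Macrophage markers rose in 7 of 8 after either beam, from 90.2 to 341 TPM summed in untreated bone to 964 to 1210 TPM after F-PRT. All 8 neutrophil markers fell after either beam (median log2 -4.92), from between 1820 and 15200 TPM summed in untreated bone to between 454 and 612 TPM after F-PRT and 308 and 1030 TPM after S-PRT. Of the 8 B cell markers, 4 fell after either beam, Blk and Vpreb1 among them in both. Their summed TPM overlapped, from 71.9 to 232 in untreated bone, 150 to 221 after F-PRT and 116 to 214 after S-PRT. After either beam, 3 of the 4 gamma delta T cell markers tested and 4 of the 8 endothelial markers rose, and of 7 mast cell markers 2 rose and 2 fell. Osteoblast and osteocyte markers rose in 3 of 8 after F-PRT and 4 of 8 after S-PRT, with 0 lower by edgeR. Basal keratinocyte markers summed to between 35.8 and 43.4 TPM in untreated bone, 53.0 and 77.6 TPM after F-PRT and 47.4 and 68.2 TPM after S-PRT. Of the 7 tested, 5 rose after F-PRT, Krt5 and Krt14 among them, and 2 rose after S-PRT, while Itga6 fell after both. The 8 skeletal muscle markers had positive estimates that did not pass (median log2 0.81 and 0.72). The share of these shifts in the changes of the 10 genes was not tested.

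**Figure D4:**
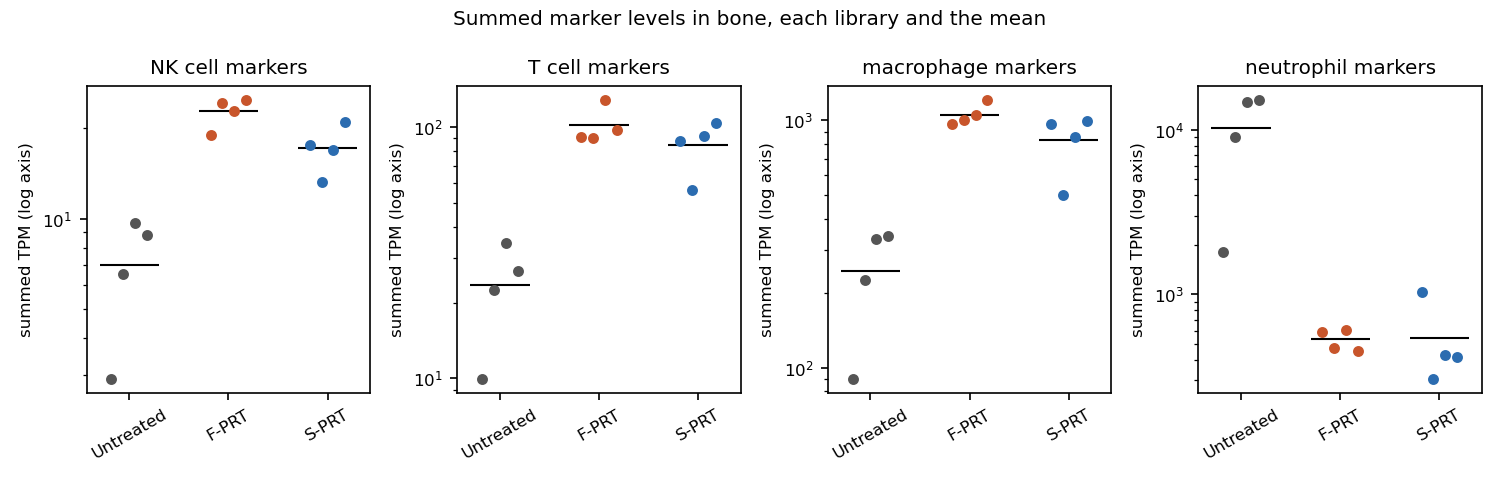
Summed TPM of 4 marker lists in the 12 bone libraries, each on its own log axis. Points are libraries and lines the mean of 4; NK cell, T cell and macrophage sums lie higher in all irradiated libraries than in untreated ones, and neutrophil sums lie lower, with Untreated 1 lowest of its group in each panel.

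Genes around the 10 in the same pathway moved unevenly in bone. The counts of this and the following lists stand beside all genes. Of those, 15.5% rose and 17.2% fell after F-PRT, and 13.3% rose and 15.2% fell after S-PRT. Of 8 further cytotoxic effectors tested, 6 rose after F-PRT and 4 after S-PRT, with a median of log2 1.27 and 1.12. Ccl5, a chemokine stored and released by killer lymphocytes, rose 3.63-fold after F-PRT and 2.5-fold after S-PRT (edgeR adjusted p = 0.00353 and 0.0271). Ctsw, a protease of cytotoxic cells, rose 1.97-fold after either beam, and Tnfsf10, the death ligand TRAIL, rose 1.8-fold and 1.48-fold. Gzme belongs to a cluster of near-identical granzyme genes and is therefore less certain. It went from at most 0.134 CPM in untreated bone to between 0.487 and 2.48 CPM after F-PRT and 0.285 and 2.59 CPM after S-PRT. Gzme passed the filter on low counts only through the irradiated libraries. Its calls after both beams (edgeR adjusted p = 0.00399 and 0.00488), included in the 6 and 4, rest on the groups where it was high. They are a description.

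Granule machinery showed the opposite lean. Of its 9 genes, Ctsc, Lamp1 and Serpinb9 rose and 6 fell after either beam, with a median of log2 -0.95 after F-PRT and -0.90 after S-PRT. Lyst, a regulator of lysosome-related granules, fell from 475 ± 13.5 CPM in untreated bone to 170 ± 9.68 CPM after F-PRT and 172 ± 9.68 CPM after S-PRT (SD, n = 4). Unc13d, Stx11 and Stxbp2, which dock and fuse lytic granules and are also active in neutrophils and other blood cells, fell to between 0.351 and 0.534 times the untreated level. For these 3 and Lyst, irradiated libraries lay below the untreated ones without overlap, as for 17.0% of all genes after F-PRT and 14.4% after S-PRT. Any relation to the fall of the neutrophil markers was not tested.

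Other NK receptors leaned upward. Of 22 tested, 18 had positive estimates after F-PRT and 16 after S-PRT. By the test, 10 rose and 2 fell after F-PRT, against 15.5% and 17.2% of all genes. After S-PRT 5 rose and 2 fell, counts not far from the 13.3% and 15.2% of all genes. Klrg1, an inhibitory receptor of mature NK and T cells, rose by log2 1.76 and 1.88. Klrc2, whose product NKG2C pairs with that of Klrd1, rose 1.87-fold after F-PRT and 1.69-fold after S-PRT, and Klra7, of the Ly49 family, rose 2.47-fold and 1.99-fold. Ly49 genes are near-identical copies, so single members are uncertain. Cd226 (DNAM-1), an activating receptor also found on megakaryocytes and T cells, fell from 44.0 ± 3.66 CPM to 13.0 ± 1.42 CPM after F-PRT and 9.53 ± 1.08 CPM after S-PRT. Klrb1f, a relative of Klrb1c, fell to 0.486 and 0.399 times the untreated level (adjusted p = 0.00126 and 0.000281).

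Signalling genes split. Among the 10 adaptors and kinases, 3 rose and 3 fell after F-PRT, and 2 rose and 3 fell after S-PRT. Over all genes, 15.5% rose and 17.2% fell after F-PRT, and 13.3% and 15.2% after S-PRT, so counts this small are a description. Zap70, the kinase behind the T cell receptor and several NK receptors, rose 2.49-fold after F-PRT and 2.12-fold after S-PRT, and the adaptor Sh2d2a rose 2.24-fold and 2.04-fold. Sh2d1a, the adaptor SAP, rose after F-PRT by log2 1.57. Hcst, which encodes DAP10, the adaptor that carries the signal of Klrk1, fell after both beams (log2 -1.13 and -1.02) while Klrk1 itself rose. Vav1 and Plcg2, used by most blood cells, fell to between 0.56 and 0.605 times the untreated level. Of the 14 cytokine and receptor genes tested, 6 rose and 3 fell after F-PRT, and 5 rose and 3 fell after S-PRT. Il2rb, the beta chain through which NK cells read interleukin 15, rose 3.05-fold and 2.41-fold, and Il2rg, the common gamma chain, rose 2.25-fold and 2.1-fold. Il18, Il12rb2 and Il21r also rose after both beams and Il12rb1 after F-PRT. Il18rap, a chain of the interleukin 18 receptor, fell to 0.295 and 0.293 times the untreated level, Il12a to 0.459 and 0.464 times, and Il7r by 1.04 and 1.07 on the log2 scale.

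Transcription factors leaned upward. Of 12 other transcription factors, 6 rose after F-PRT and 4 after S-PRT, against 15.5% and 13.3% of all genes. By edgeR 0 fell, against 17.2% and 15.2%. Prdm1 (Blimp-1), Rora and Gata3 rose after both beams, Prdm1 1.97-fold and 2.1-fold, and Tox, a factor for NK and T cell development, rose 2.36-fold after F-PRT and stood at log2 0.83 after S-PRT (adjusted p = 0.0752). Of the trafficking receptors, Cxcr3, which responds to interferon-induced chemokines, rose 2.54-fold after F-PRT and 2.28-fold after S-PRT. Ligands that these receptors read on target cells were less uniform: of 7 tested, 2 rose and 1 fell after F-PRT, and 1 fell after S-PRT. Such small counts are near the shares of all genes and are a description. Ulbp1, a ligand of Klrk1, fell to 0.64 and 0.6 times the untreated level, H2-T23, which encodes Qa-1, rose 1.32-fold after F-PRT (adjusted p = 0.0423), and Clec2d, the ligand of an inhibitory Klrb1 receptor, rose 1.51-fold.

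Skin after irradiation was compared with untreated skin in the same way. Only 5 of the 10 genes, Nkg7, Prf1, Klrb1c, Klrk1 and Klrd1, passed the filter on low counts, and the others held 12 counts or fewer in any skin library. Of the 5, edgeR called 0 after F-PRT and 0 after S-PRT, where it called 2.39% and 4.34% of all 19038 genes in either direction. By unadjusted p, 1 of the 5 was under 0.05 after each beam, and DESeq2 and limma voom called 0. All 5 estimates were negative after both beams, with medians of log2 -0.66 and -0.79 against -0.02 and 0.0 for all genes.

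**Figure D5:**
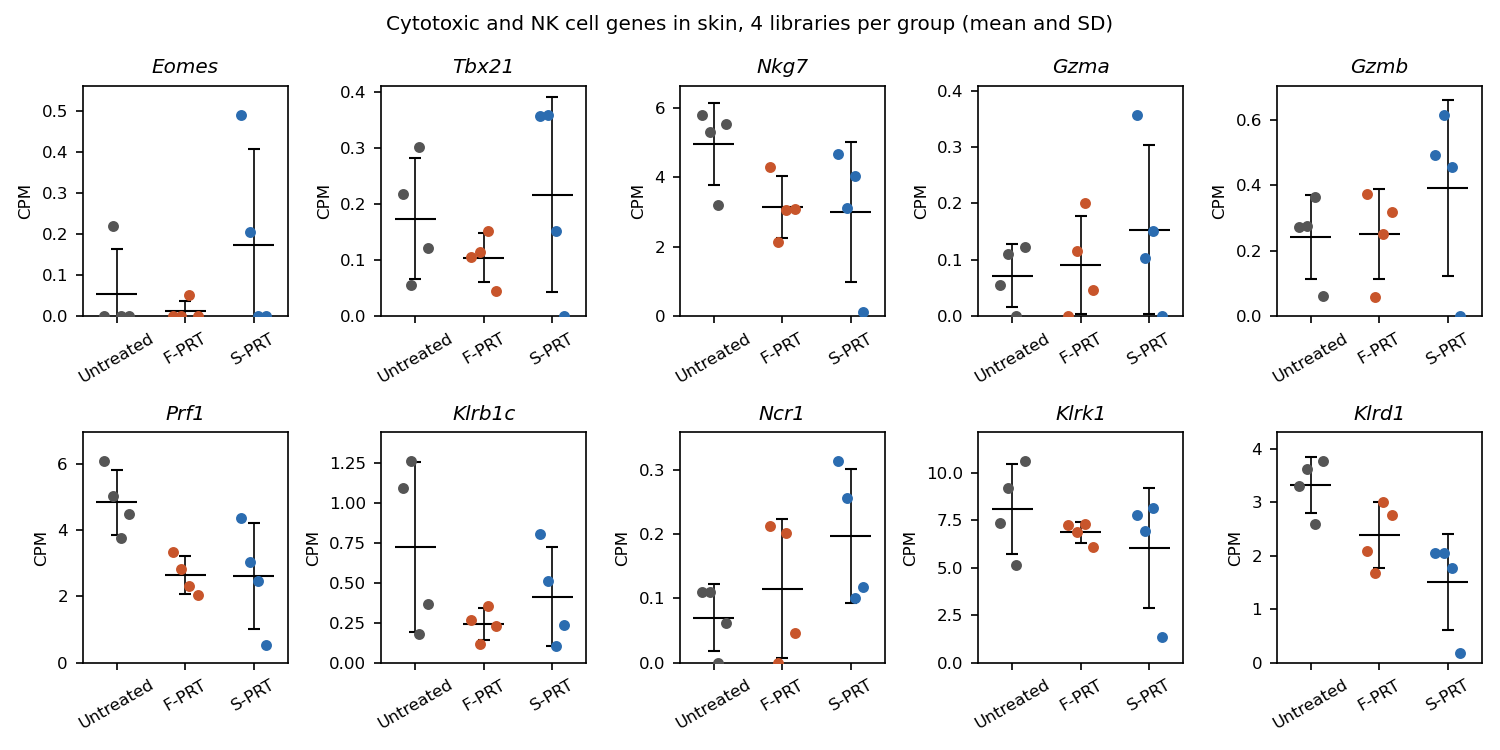
Scaled counts (CPM) of the 10 genes in the 12 skin libraries, on axes that start at 0, with the mean and SD of 4. For Nkg7, Prf1, Klrk1 and Klrd1 the last S-PRT point lies far below the other libraries, and the axes of Eomes, Tbx21, Gzma, Gzmb and Ncr1 span only a few counts.

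Prf1 in skin was at 6.08, 5.04, 3.75 and 4.5 CPM in Untreated, 3.35, 2.82, 2.31 and 2.05 CPM in F-PRT and 4.38, 3.03, 2.47 and 0.527 CPM in S-PRT. All F-PRT libraries were below all untreated ones, as for 8.14% of all genes, and S-PRT 1 overlapped. The change was log2 -0.88 after F-PRT (95% interval -1.83 to 0.07, adjusted p = 0.382) and -0.89 after S-PRT (-1.84 to 0.06, adjusted p = 0.337). With S-PRT 4 left out, the F-PRT value had the same size and an SE of 0.25 in place of 0.44, and its adjusted p was 0.054.

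Klrd1 was at 3.31, 3.62, 2.6 and 3.77 CPM in untreated skin, 2.08, 1.67, 3.01 and 2.77 CPM in F-PRT and 2.05, 2.05, 1.77 and 0.176 CPM in S-PRT. Every S-PRT library was below every untreated one, as for 5.37% of all genes. Klrd1 stood at log2 -1.12 after S-PRT (95% interval -2.16 to -0.09, adjusted p = 0.251), or -0.75 without S-PRT 4 (adjusted p = 0.0756), and at -0.48 after F-PRT (-1.49 to 0.54). Klrk1 was at 7.33, 9.21, 5.14 and 10.6 CPM in untreated skin, 7.24, 6.85, 7.28 and 6.09 CPM in F-PRT and 7.77, 6.92, 8.13 and 1.35 CPM in S-PRT. Its groups overlapped throughout, with log2 -0.23 after F-PRT (-1.12 to 0.65) and -0.41 after S-PRT (-1.3 to 0.47). Nkg7 was at 5.81, 5.32, 3.21 and 5.53 CPM in untreated skin, 4.31, 2.13, 3.06 and 3.09 CPM in F-PRT and 4.69, 3.13, 4.04 and 0.117 CPM in S-PRT. It too overlapped between groups (log2 -0.66 and -0.72, adjusted p = 0.672 and 0.601).

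Klrb1c was scarce in skin: 20, 23, 3 and 6 counts in the untreated libraries, 5, 2, 7 and 5 counts in F-PRT and 18, 10, 2 and 4 counts in S-PRT. The untreated libraries split into a high and a low pair. Its F-PRT value of log2 -1.57 (95% interval -3.05 to -0.09, adjusted p = 0.301) did not pass, nor did its S-PRT value of -0.79 (-2.17 to 0.6, adjusted p = 0.59). Between the beams in skin, edgeR called 0 of the 5 genes and 0.0% of all genes (0 of the 5 by unadjusted p under 0.05, DESeq2 or voom), with estimates from log2 -0.78 for Klrb1c (-2.31 to 0.75) to 0.65 for Klrd1 (-0.39 to 1.68).

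The remaining 5 genes were near the limit of detection in skin. Eomes had 4 counts over the 4 untreated libraries, all of them in replicate 2, then 1 count over F-PRT and 15 over S-PRT. Tbx21 had 12, 8 and 18 counts over the same groups, Gzma 5, 7 and 13, Gzmb 17, 20 and 32 and Ncr1 5, 9 and 16. They were not tested between skin groups.

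Skin S-PRT 4 had the lowest value of its group in 7 of the 10 genes and shared the lowest for Eomes with S-PRT 3. Its endothelial markers summed to 1.19 TPM, the minimum over the skin libraries, where Untreated held 10.6 to 36.2 TPM and F-PRT 36.6 to 44.7 TPM. Its basal keratinocyte markers summed to 8250 TPM, the maximum, against 2080 to 5830 TPM in the other skin libraries. The part of this in its low values was not tested. The 7 gamma delta T cell markers in skin summed to between 13.7 and 38.0 TPM in Untreated, 14.4 and 22.0 TPM in F-PRT and 4.81 and 27.8 TPM in S-PRT, and 0 of the 5 tested passed after either beam by edgeR. T cell markers likewise gave 0 of 10. In the neighbouring gene lists, 1 gene passed in skin, where 2.39% and 4.34% of all genes were called after F-PRT and S-PRT. It was Clec2g, a ligand of Klrb1-family receptors that keratinocytes express. Clec2g rose 1.9-fold after F-PRT (10.2 ± 1.98 to 19.4 ± 2.91 CPM, edgeR adjusted p = 0.0189) and 1.72-fold after S-PRT (adjusted p = 0.0314).

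In the other lists the smallest skin p values did not reach the threshold. Gzmc, a granzyme, was at 1.4 ± 1.18 CPM in untreated skin and 0.469 ± 0.0921 CPM in F-PRT (SD, n = 4; adjusted p = 0.327). Cd247, the zeta signalling chain, was at 5.03 ± 1.23 CPM in untreated skin, 2.89 ± 0.866 CPM in F-PRT and 2.4 ± 0.875 CPM in S-PRT (adjusted p = 0.269 and 0.0982). Runx3, a factor of cytotoxic lymphocytes that is also made by skin cells, was at 14.3 ± 1.41, 8.5 ± 1.63 and 6.68 ± 3.47 CPM (adjusted p = 0.379 and 0.139), with no overlap between untreated and irradiated libraries. Cd160 (log2 -0.35 and -0.86), Cxcr6 (-0.41 and -0.64), Il2rg (-0.49 and -0.47) and Rab27a (-0.73 and -0.56) likewise had negative estimates that did not pass.

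Whether a beam changed a gene differently in bone and skin was tested as an interaction over all 24 libraries. It is read for the 5 genes that passed the filter in both tissues. The F-PRT effect was higher in bone for 3 of the 5 and lower for 0, against 5.99% and 4.66% of 20754 genes. Prf1 differed by log2 2.21 (SE 0.53, adjusted p = 0.00854), Klrb1c by 2.73 (SE 0.71, adjusted p = 0.0158) and Klrk1 by 1.56 (SE 0.47, adjusted p = 0.0344). The S-PRT effect was higher in bone for 2 genes, Prf1 (log2 2.10, SE 0.52, adjusted p = 0.0124) and Klrd1 (1.94, SE 0.56, adjusted p = 0.0304), and lower for 0, against 4.49% and 4.96% of all genes. Prf1 was thus the gene that rose in bone under both beams and passed this test under both. Prf1 kept both calls with any single library left out. Klrb1c lost its call without skin Untreated 2 (adjusted p = 0.0558). Klrk1 lost it without skin Untreated 2 or 4, any 1 skin F-PRT library, bone Untreated 1, 2 or 4 or bone F-PRT 2 or 3 (adjusted p from 0.0511 to 0.0714). Klrd1 lost it without skin Untreated 2 or 4, bone Untreated 3 or bone S-PRT 3 or 4 (adjusted p from 0.0514 to 0.0642). Without skin S-PRT 4, Klrd1 joined under F-PRT (adjusted p = 0.0071) and Klrk1 under S-PRT (adjusted p = 0.0288). The difference between the beams did not vary between tissues for any of the genes by edgeR, DESeq2 or voom (0.0% of all genes called by edgeR). By unadjusted edgeR p, the only member under 0.05 was Eomes, which passed the filter only through bone and is not read here.

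Genes outside the list whose pattern was most like the 10 differed between the tissues. They were ranked by Pearson r over 12 libraries between their log2 CPM and the mean scaled log2 CPM of the genes tested. In skin, among 13876 genes, these were Il2rb (r = 0.98, Spearman rho = 0.867), Cd7 (0.978, 0.867), Trdc (0.971, 0.825), Procr (0.971, 0.972) and Cd3e (0.969, 0.776). Without S-PRT 4 and Untreated 2, the libraries farthest out, r ran from 0.827 for Cd3e to 0.959 for Procr. In bone, among 13939 genes, they were Il18 (r = 0.992, rho = 0.951), Epsti1 (0.988, 0.93), Mrc1 (0.987, 0.902), Ms4a6b (0.987, 0.972) and Prdx1 (0.986, 0.944), with r from 0.961 to 0.976 without Untreated 1 and Untreated 2. Cd3e, Cd7 and Trdc are T cell genes, and Mrc1 is a macrophage gene. These r values describe the ranking itself and the libraries share depth and tissue makeup. Il18 ran from 3.15 to 9.2 CPM in untreated bone, 15.9 to 19.8 CPM after F-PRT and 8.77 to 17.8 CPM after S-PRT.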

How the data were processed

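PolyA RNA of skin and bone was sequenced by the authors as 2 x 150 base pair reads on a HiSeq 4000, per the labels. Per the submitters' processing notes, the tools were STAR, RSEM, cutadapt and FastQC and the build GRCm38. Of their versions, their roles and the library strand nothing is given in the sources used here. Every file as deposited lists expected counts, TPM and FPKM for 55471 genes, per the file headers. The authors' expected counts, rounded to whole numbers, entered the tests. The deposited TPM gave levels between genes and tissues, and the deposited FPKM entered no result. RSEM shares reads among near-identical genes. GENCODE M21 matched 55230 identifiers (99.57%).

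Tests used edgeR 4.0.16 in R 4.3.3 (quasi-likelihood F test, TMM, filterByExpr, Benjamini-Hochberg over all genes tested, threshold 0.05) on the 12 libraries of a tissue, or all 24 for contrasts between tissues. CPM carries TMM scaling per tissue. Means are over n = 4 with SD, and the 95% intervals come from the fit. Replicate pairs differed beyond counting error (chi-square per degree of freedom 9.54 to 209.71). The workflow was tested on simulated data.

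The 10 genes, the 8 related lists, the 11 marker lists and the naming rule were chosen with earlier results of these data known. All members were named. From each related list up to 4 genes past the test were named per tissue, by smallest p, or the 1 of smallest p where 0 passed, and for like patterns the 5 of highest r with a mean of at least 1 CPM. Members of the lists named beyond these (Ctsc, Lamp1, Serpinb9, Hcst, Sh2d1a, Klrg1, Il18, Il12rb1, Il12rb2, Il21r, Il7r) and the marker genes were chosen after their values were seen. Some genes of the lists, and the counts over the trafficking list, are not reported here.

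Alternatives were DESeq2 1.42.0, voom with sample quality weights (limma 3.58.1), the replicate number as a block, RLE scaling, the 8 compared libraries alone, each library left out in turn, a minimum of 1 CPM in 4 libraries, and all genes unfiltered. For contrasts between tissues the block was treatment and replicate number together, shared by skin and bone. Added after the data were seen were library size scaling alone and a fit without 5 libraries: skin S-PRT 4 and Untreated 1, and bone F-PRT 2, F-PRT 3 and Untreated 1.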

Additional observations from a re-analysis of the deposited data

Results flagged for a closer look

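In 5 of 60 sets of 4 libraries (each gene in each group), 1 library stood apart from its 3 fellows by Dixon's test at the 95% level. Chance alone marks about 1 in 20 such sets. In untreated bone, replicate 1 was the low one for Eomes (2.06 CPM, others 3.13 to 3.33) and for Klrb1c (2.06 CPM, others 6.67 to 6.94). In skin S-PRT, replicate 4 held 0.176 CPM of Klrd1, where the others held 1.77 to 2.05. The remaining 2 are Eomes in skin, where a single library had any count: 0.219 CPM in Untreated 2 and 0.0502 CPM in F-PRT 3.

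Effects of irradiation that differed between bone and skin by the interaction test (edgeR on all 24 libraries) were marked as well. For F-PRT these were Prf1 (log2 difference 2.21), Klrb1c (2.73) and Klrk1 (1.56). For S-PRT they were Prf1 (2.1) and Klrd1 (1.94). All 5 differences were positive, that is, higher in bone.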

How the results depend on the processing

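Over 2217 gene values under the alternatives, 59 lost their call, 23 gained one, and 0 calls turned direction. A further 32 uncalled values changed sign. In bone, F-PRT against Untreated, the number of genes called was from 8 to 9 with 1 library left out and 9 by DESeq2, voom and RLE scaling. In bone, S-PRT against Untreated, it was from 4 to 7 with 1 library left out and 8 by DESeq2. Voom gave 5 higher and 1 lower, Nkg7 (log2 -0.73). Scaling by library size alone put the median log2 change of all bone genes at 0.19 (F-PRT) and 0.18 (S-PRT), where the main test had -0.01 for both. It gave 9 and 8 genes higher.

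Counts of genes whose effect differed between tissues, taken here over all 10 genes, 5 of which passed the filter only through bone, were the least stable. For F-PRT, 3 were called, 5 by DESeq2 and 1 to 5 with 1 library left out (1 without skin Untreated 2, 5 without skin S-PRT 4). For S-PRT, 2 were called, and from 1 to 3 with 1 library left out. With the replicate number as a block, the count in bone after S-PRT was 5. In the fits over both tissues, the block joined the skin and bone libraries of the same treatment and number. With it, the counts of genes whose effect differed between tissues were 0 for F-PRT and 1 for S-PRT. The differences that no longer passed under the block were those of Prf1 (adjusted p = 0.0503), Klrb1c (0.0975) and Klrk1 (0.105) for F-PRT and of Klrd1 (0.0807) for S-PRT. Same-numbered libraries did not deviate together (correlations from -0.39 to 0.37, with no comparison over 0.1 in all 4 pairs), so the numbers were not taken to pair samples. The cause of these changes was not tested.

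Over all genes, the count called ran across the alternatives from 216 to 2704 in skin F-PRT (455 in the main test), 305 to 4509 in skin S-PRT (827), 0 to 21 between the beams in bone (1) and 0 to 2 in skin (0). It ran from 1236 to 4203 for the F-PRT effect between tissues (2212), from 1090 to 3655 for S-PRT (1961) and from 0 to 1 for the difference of the beams (0). Counting depth limits the 5 genes below the filter in skin.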
